A study of Mus musculus with 8 samples.

Results

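In bone marrow-derived macrophages (BMDMs), 1050 of the 9698 ATAC-seq peaks of the wild-type (WT) table lay within 2000 bp of a transcription start site (TSS) and belonged to the peak set of cells treated with RGFP966 and KLA, but to neither the set of vehicle-treated cells nor the set of cells treated with KLA alone. They were chosen by this presence and absence in the 3 sets of peaks and by the distance to the TSS. They are called RGFP966 + KLA-only promoter peaks below, after that rule, and they made up 21.4% of the 4913 promoter peaks in the table and 1050 of the 2908 peaks of any position with that pattern of sets. The other RGFP966 + KLA-only peaks were 1846 distal peaks and 12 peaks for which no distance was listed. Since tags in the 6 WT libraries decided which peaks entered which set, every difference between the WT conditions at these promoters is given as a description and not as a test.

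WT BMDMs of C57BL/6 mice aged 8 to 12 weeks received vehicle (Veh), KLA at 100 ng/mL for 6 h, or RGFP966 together with KLA, and each condition had 2 libraries. RGFP966 was added with the serum starvation of 12 h that came before KLA, at a concentration that the methods write as 5 mM. The titles of its libraries name RGFP966 whereas their treatment entry names only KLA, and the titles were followed here. BMDMs with floxed NCoR1 alleles (NCoR f/f) at Veh, also of C57BL/6 mice aged 8 to 12 weeks, gave 2 further libraries. These were counted on their own 24867 peaks. No Cre is named in their labels, and their column names read NCoRWT. The study took NCoR f/f mice as the WT controls of its NCoR f/f LysM-Cre mice. Cells of all groups were starved for 12 h, and Veh was given for 6 h as well. The column names of the NCoR f/f libraries carry another date-like code than those of the WT libraries, and its meaning is not stated. Whether replicate libraries stem from different mice or cultures is not stated, so the spread between them may be technical.

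A promoter carries the TSS of a gene, and in mammals most promoters of widely expressed genes are CpG islands that stay free of nucleosomes whether or not a signal arrives. ATAC-seq reads this openness, because the Tn5 transposase inserts adapters where DNA is not wrapped in nucleosomes. KLA is a pure lipid A ligand of TLR4 and drives NF-kB, AP-1 and interferon-regulatory factors in macrophages. HDAC3 is the histone deacetylase bound to the corepressor NCoR, and RGFP966 is an inhibitor selective for HDAC3.

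The range of sequence at these promoters is shown by 7 of them, read from the GRCm38 (mm10) genome on the strand of the gene. Each run lies within the central 200 bp of the peak and leaves out annotated exons. Capitals mark matches, on either strand, to the motifs described further on. Fah, Mfge8 and Tob1 are among the 4 promoters called higher with RGFP966 + KLA than with KLA. Lyplal1, Aqr and Rbak are among the 12 with the most tags with RGFP966 + KLA. Prpf39 lies downstream of its TSS, is poor in CpG, and had no peak in NCoR f/f cells. The runs are at chr7:84605943-84606026 (minus strand), chr7:79149061-79149194 (minus), chr11:94210220-94210419 (plus), chr1:186117311-186117433 (minus), chr2:114175340-114175475 (minus), chr5:143180776-143180956 (minus) and chr12:65037668-65037867 (plus).
Fah: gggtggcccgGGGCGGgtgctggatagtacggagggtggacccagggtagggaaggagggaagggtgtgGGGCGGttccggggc
Mfge8: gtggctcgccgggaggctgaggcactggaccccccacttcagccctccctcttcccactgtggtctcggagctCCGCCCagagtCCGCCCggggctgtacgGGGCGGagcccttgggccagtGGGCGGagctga
Tob1: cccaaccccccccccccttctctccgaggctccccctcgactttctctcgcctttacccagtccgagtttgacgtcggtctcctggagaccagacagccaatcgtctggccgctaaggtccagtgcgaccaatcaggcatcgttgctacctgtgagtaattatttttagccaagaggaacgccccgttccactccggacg
Lyplal1: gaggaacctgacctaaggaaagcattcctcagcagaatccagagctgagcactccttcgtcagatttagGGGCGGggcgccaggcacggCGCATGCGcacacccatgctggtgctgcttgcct
Aqr: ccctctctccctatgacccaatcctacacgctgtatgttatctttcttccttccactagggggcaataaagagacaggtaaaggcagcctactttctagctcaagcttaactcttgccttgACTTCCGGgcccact
Rbak: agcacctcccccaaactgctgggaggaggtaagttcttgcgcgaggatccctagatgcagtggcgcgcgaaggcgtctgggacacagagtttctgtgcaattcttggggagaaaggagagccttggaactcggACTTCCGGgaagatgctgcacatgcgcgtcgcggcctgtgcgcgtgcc
Prpf39: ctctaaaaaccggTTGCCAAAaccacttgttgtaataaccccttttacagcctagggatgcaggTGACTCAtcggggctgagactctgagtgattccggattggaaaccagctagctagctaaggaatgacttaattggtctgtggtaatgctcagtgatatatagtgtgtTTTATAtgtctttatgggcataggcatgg
The Fah and Mfge8 runs hold GC boxes, the letters GGGCGG that Sp and KLF factors bind. The Aqr and Rbak runs hold an ETS site near the TSS. The Lyplal1 run holds a GC box and an NRF1 core, and the Prpf39 run holds an AP-1 site, a C/EBP site and a TATA-box string. The Tob1 run holds none of the strings searched.

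The RGFP966 + KLA-only promoters were weak peaks with tags in every condition. The 2 Veh libraries had a median of 7 and 7 tags at them, the KLA libraries 11 and 6, and the RGFP966 + KLA libraries 15 and 15. Scaled to 1000000 tags in peaks per library (CPM), which takes out the depth, the medians were 54.3 and 57.8 at Veh, 58.8 and 51.4 with KLA, and 74.1 and 77.2 with RGFP966 + KLA. The RGFP966 + KLA libraries were thus the highest, and the Veh and KLA libraries interleaved. The 1917 promoters in all 3 sets had medians of 155.1 and 148.6 at Veh, 144.4 and 145.6 with KLA, and 138.3 and 139.0 with RGFP966 + KLA, well above these peaks in all 6 libraries. Even with RGFP966 + KLA, the middle range of the RGFP966 + KLA-only promoters (65.2 to 85.7 mean CPM from the lower to the upper quartile) lay below the lower quartile of 109 for promoters in all 3 sets. A count of 15 tags at a single promoter in a single library has an exact Poisson 95% interval of 8.4 to 24.7, which covers counting error only. It bears on single promoters and does not measure the error of the medians over all of them.

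Together the 1050 promoters held 6.23% and 6.07% of all tags in peaks at Veh, 6.28% and 5.88% with KLA, and 8.11% and 8.11% with RGFP966 + KLA. Both RGFP966 + KLA libraries were above the 4 others, whose ranges overlapped between Veh and KLA. No peak had 3 tags or fewer in an RGFP966 + KLA library, while between 25 and 147 peaks had so few in each Veh or KLA library. A peak had 0 tags in both Veh libraries at 1 promoter, that of Atg10, and none had 0 in both KLA libraries. The WT libraries held 116733 to 202523 tags in peaks, between 1.4034% and 2.064% of all their tags. The RGFP966 + KLA libraries were the deepest (202523 and 194208), KLA replicate 2 was the shallowest (116733), and the Veh libraries had 128949 and 121106. Tags of single promoters are given raw below, so a higher count with RGFP966 + KLA includes this greater depth. The part that depth played in which peaks entered a set was not tested.

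**Figure D1:**
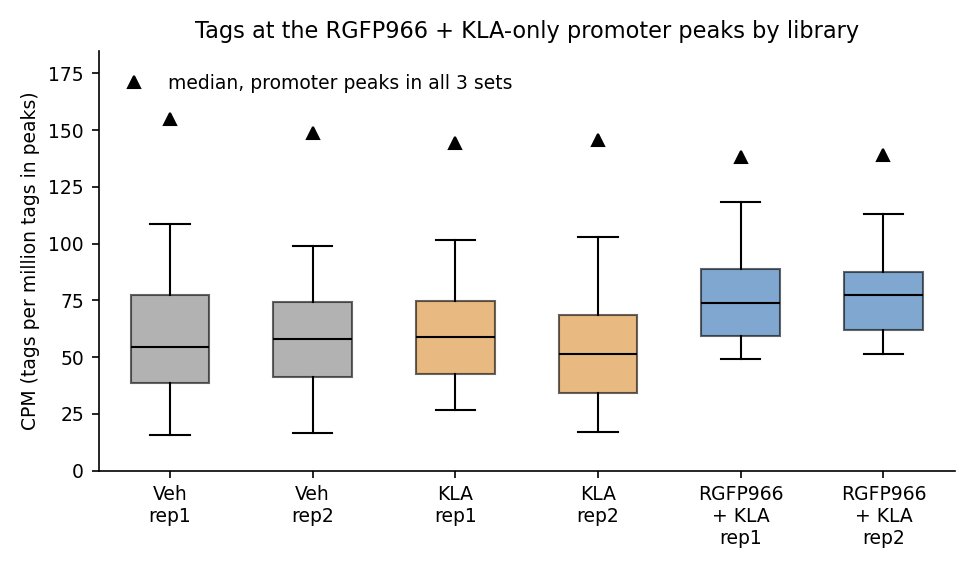
CPM at the 1050 RGFP966 + KLA-only promoter peaks in each WT library. Boxes span the quartiles with the median as a line, whiskers reach the 5th and 95th percentiles, and triangles give the median of the 1917 promoter peaks in all 3 sets, which lie above the boxes in all 6 libraries.

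Membership in the RGFP966 + KLA set alone did not mean that each peak was highest there. The mean level was higher with RGFP966 + KLA than with KLA at 890 promoters (84.8%) and higher than at Veh at 833 (79.3%), against 49.9% and 45.0% of all promoter peaks. It was above both other means at 737 promoters (70.2%, against 30.9% of all promoter peaks). The remaining promoters included 160 (15.2%, against 50.1% of all promoter peaks) at which the KLA mean was at or above that with RGFP966 + KLA, and 217 (20.7%, against 55%) at which the Veh mean was. At 64 promoters both were (6.1%, against 36.0%). The rule used the tags behind all of these shares. Both RGFP966 + KLA libraries stood above both KLA libraries at 487 promoters (46.4%), where 25.7% of all peaks showed this. They stood above both Veh libraries at 449 (42.8%, against 30.0% of all peaks). They stood above all 4 other libraries at 268 (25.5%, against 13.8% of all peaks).

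With KLA alone, levels at these promoters lay near those at Veh, with a median log2 change of -0.02. The KLA mean was above the Veh mean at 505 of 1050 (48.1%). Both KLA libraries lay above both Veh libraries at 162 promoters (15.4%, against 25.3% of all peaks) and below both at 158 (15.0%, against 22.6% of all peaks). Both shares were below those of all peaks, as were the 12 calls by edgeR described below. The rule, which required absence from both sets, bears on these counts as well.

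On the log2 scale of the edgeR fit, the median change of the RGFP966 + KLA-only promoters was 0.39 with RGFP966 + KLA against KLA, 0.38 against Veh, and -0.02 with KLA against Veh. The same medians over all 9698 peaks were 0.03, 0.04 and 0.02. The middle range of the promoters reached from 0.12 to 0.72 against KLA, from 0.07 to 0.74 against Veh, and from -0.36 to 0.37 for KLA against Veh. All 1050 passed the filter of 4 tags in at least 1 library, and 1 promoter with 0 tags in both Veh libraries, set to its bound, left the medians at these values.

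**Figure D2:**
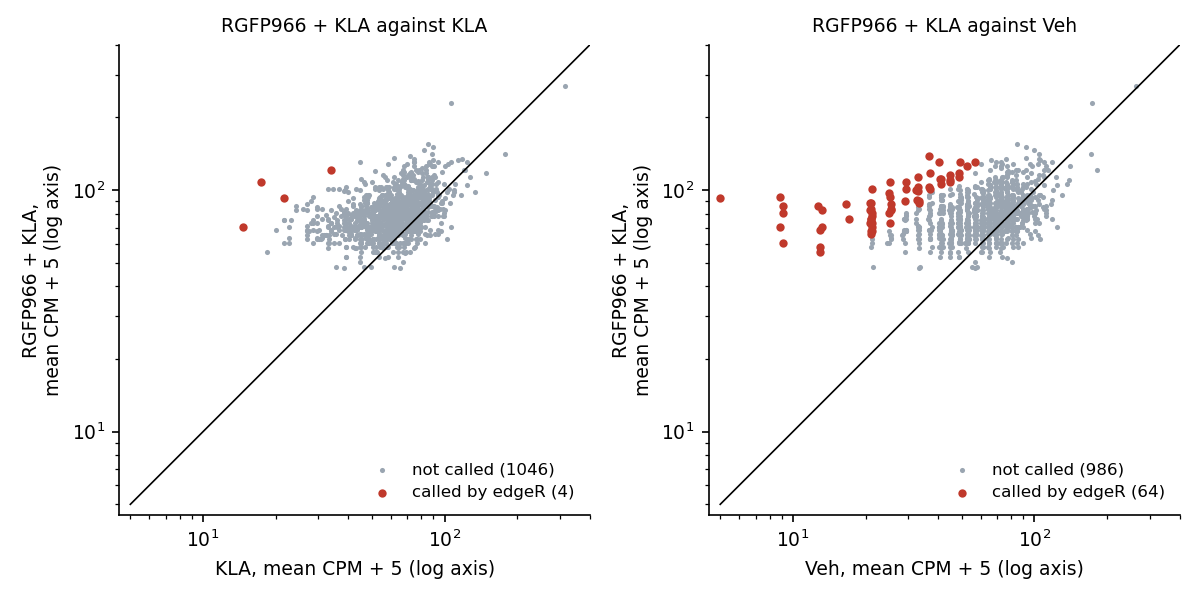
Mean CPM with RGFP966 + KLA against KLA (left) and against Veh (right) for the 1050 promoter peaks, on log axes after adding 5. Most points lie above the line of equal values, the points stop at a floor in the RGFP966 + KLA direction that the choice of peaks sets, and red points (4 and 64) are those called by edgeR.

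Few of the promoters passed the calling threshold of the study, an adjusted p under 0.05 and a fold change over 2. For RGFP966 + KLA against KLA, edgeR called 4 of 1050 (0.381%), all gained, where 0.34% of all peaks were called, 0.237% gained and 0.103% lost. For RGFP966 + KLA against Veh it called 64 (6.1%), all gained, against 9.88% of all peaks, 6.89% gained and 2.99% lost. For KLA against Veh it called 12 (1.14%), 8 gained and 4 lost, against 5.03% of all peaks, 3.3% gained and 1.73% lost. DESeq2, the tool that the methods name for this step, called 0 promoters in each comparison. Its adjusted p against KLA was 0.9997 at each of the 4 promoters that edgeR called. At an unadjusted p under 0.05 it had 18, 42 and 15 of them in the same order (1.71%, 4.0% and 1.43%), against 1.48%, 7.65% and 5.88% of all peaks. edgeR had 165, 182 and 83 at that level (15.7%, 17.3% and 7.9%), against 13.8%, 25.4% and 19.5% of all peaks. With both directions counted, the promoters thus lay near the share of all peaks against KLA and below it in the comparisons with Veh, by either tool. By edgeR, 164 of the 165 promoters against KLA and 181 of the 182 against Veh were higher with RGFP966 + KLA. The rule used the tags behind these directions. Among gained calls alone, the 6.1% against Veh lay near the 6.89% of all peaks. In all, 981 promoters were called by edgeR in none of the comparisons. The share of all peaks called by DESeq2, or with a library left out, is not given here. Those counts therefore describe the members without a background. Without KLA replicate 1 or RGFP966 + KLA replicate 1 the 4 calls against KLA came to 0, without KLA replicate 2 or RGFP966 + KLA replicate 2 to 1, and without either Veh library to 10. Without a Veh library the 64 calls against Veh came to 14 or 29, and without an RGFP966 + KLA library to 23 or 24. The 12 calls for KLA against Veh came to 2 without KLA replicate 1, and to 4 or 7 without Veh replicate 1 or 2.

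The 4 promoters called against KLA belong to genes of unlike function. The peak of Slco5a1, a member of the organic anion transporter family, lay 1245 bp upstream of the TSS at chr1:12992247-12992514. It had 2 and 4 tags at Veh, 3 and 1 with KLA, and 26 and 15 with RGFP966 + KLA, so both inhibitor libraries were far above the others, and the fitted log2 difference from KLA was 2.90 ± 0.55 (SE). Mfge8 encodes a secreted protein that bridges apoptotic cells to phagocytes. Its promoter at chr7:79148989-79149202 had 6 and 9 tags at Veh, 6 and 3 with KLA, and 25 and 21 with RGFP966 + KLA, with a log2 difference from KLA of 1.94 ± 0.45 (SE). The KLA mean was the lowest of the 3 conditions at both promoters, while single Veh and KLA libraries overlapped at Slco5a1 and not at Mfge8.

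At Fah and Tob1, Veh and RGFP966 + KLA were alike and KLA was low. Fah, the last enzyme of tyrosine breakdown, had 10 and 7 tags at Veh, 3 and 2 with KLA, and 18 and 17 with RGFP966 + KLA at chr7:84605823-84606031. The means were 67.7, 16.6 and 88.2 CPM. Tob1, an antiproliferative factor that recruits the CCR4-NOT deadenylase, had 7 and 13 tags at Veh, 2 and 1 with KLA, and 14 and 12 with RGFP966 + KLA at chr11:94210202-94210438, which lies 1134 bp upstream of its TSS. With only 3 tags in the KLA libraries, its ratio of RGFP966 + KLA to KLA in CPM was 6.64, with an exact interval of 2.03 to 34.3 for counting error. Both promoters were among the 4 called lower with KLA than at Veh.

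At the other 2 promoters called lower with KLA, the KLA mean was the lowest and the Veh mean the highest. Hnrnpa2b1, which encodes an RNA-binding protein of the pre-mRNA packaging complex, had 18 and 9 tags at Veh, 5 and 2 with KLA, and 17 and 14 with RGFP966 + KLA. Gda, which encodes guanine deaminase, had 7 and 14, then 3 and 2, then 18 and 10. Their log2 differences between RGFP966 + KLA and KLA were 1.73 and 2.05, and between RGFP966 + KLA and Veh -0.46 and -0.25. At all 4 of these promoters the KLA libraries lay below all other libraries.

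The 4 promoters with the smallest p among those called higher with KLA than at Veh also had more tags with RGFP966 + KLA than at Veh, in comparisons that share the Veh libraries. Atg10, the E2-like enzyme that joins Atg12 to Atg5 in autophagy, had 0 and 0 tags at Veh, 9 and 7 with KLA, and 21 and 14 with RGFP966 + KLA, at a peak 684 bp upstream of its TSS. Against a floor of 3 tags over both Veh libraries it was at least 4.39-fold higher with KLA and at least 7.35-fold higher with RGFP966 + KLA. Mrgpre, an orphan G protein-coupled receptor, had 0 and 1 tags at Veh, 12 and 6 with KLA, and 19 and 11 with RGFP966 + KLA. Its Veh count of 1 gave a ratio of KLA to Veh of 14.8, with an exact interval of 2.34 to 617 for counting error.

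Zfp811, a zinc finger gene, had 2 and 0 tags at Veh, 19 and 4 with KLA, and 17 and 15 with RGFP966 + KLA, so that KLA replicate 1 was far above KLA replicate 2. Myef2, a repressor of the myelin basic protein gene, had 1 and 3, then 19 and 7, then 16 and 22, at a peak in its first intron. At these 4 promoters, the log2 difference between RGFP966 + KLA and KLA lay between 0.09 at Zfp811 and 0.74 at Atg10. The 64 promoters called higher with RGFP966 + KLA than at Veh included 8 that were called for KLA against Veh as well, with the same Veh libraries in both. The median level of the 64, which were chosen here by low Veh tags, was 20.0 CPM at Veh, 53.0 with KLA and 83.3 with RGFP966 + KLA.

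**Figure D3:**
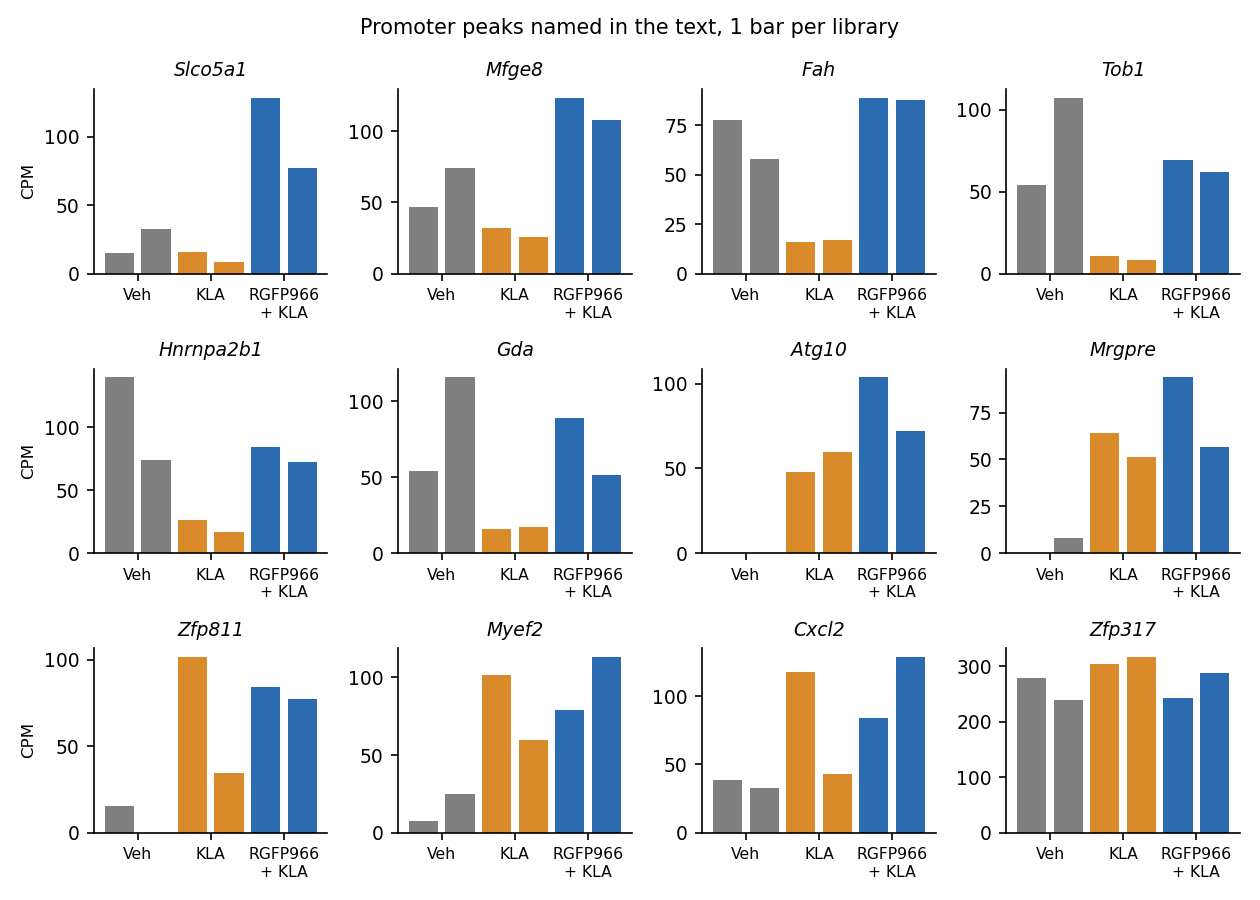
CPM at 12 of the promoters, 1 bar per library and each panel with its own axis from 0. Slco5a1 and Mfge8 were high with RGFP966 + KLA only, Fah, Tob1, Hnrnpa2b1 and Gda were low with KLA only, Atg10, Mrgpre, Zfp811, Myef2 and Cxcl2 were lowest at Veh, and Zfp317 was high in all 6 libraries.

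Some of the promoters with the most tags were high in every condition. Zfp317, a zinc finger gene, led with 49 and 56 tags with RGFP966 + KLA, and had 36 and 29 at Veh and 57 and 37 with KLA. Its mean of 265 CPM with RGFP966 + KLA lay between the 259 at Veh and the 311 with KLA. Hnrnpc, which binds nascent transcripts, was lower with RGFP966 + KLA (136 CPM) than at Veh (166) or with KLA (173). Both peaks were left out of the Veh and KLA sets with means above the lower quartiles of promoter peaks in those sets, 104 CPM at Veh and 99 with KLA. Such means were found for 26 of the promoters at Veh and 21 with KLA.

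Of the other 10 promoters with the most tags, several were higher with RGFP966 + KLA in both libraries. The noncoding gene 4932412D23Rik had 19 and 23 tags at Veh, 17 and 13 with KLA, and 52 and 37 with RGFP966 + KLA. Lyplal1, a lysophospholipase-like protein, had 12 and 8, then 14 and 10, then 34 and 26, with means of 79.6, 80.3 and 151 CPM. Aqr, an RNA helicase of the spliceosome, had 5 and 3, then 17 and 5, then 23 and 30, and was among the 64 called against Veh. Rbak, a KRAB zinc finger protein that binds the retinoblastoma protein, had 13 and 9, then 10 and 7, then 31 and 21. The remaining 6, Dnaic1, 1190002N15Rik, Tsn, Adnp2, Lrch4 and 3830432H09Rik, had log2 differences from KLA between 0.12 and 0.83, and edgeR called none of them in any comparison.

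Promoters found in the KLA set only or in the Veh set only showed a like pattern in their own condition. Here the log2 ratio is of mean CPM after adding 10. At the 1050 RGFP966 + KLA-only promoters, RGFP966 + KLA was a median of 0.33 above Veh and 0.35 above KLA. At the 306 KLA-only promoters, KLA was 0.41 above Veh and 0.60 above RGFP966 + KLA. At the 376 Veh-only promoters, Veh was 0.66 above KLA and 0.82 above RGFP966 + KLA. Each class was selected for this direction, and the RGFP966 + KLA-only class had the smallest of these medians and the deepest libraries. Both own libraries lay above both libraries of the compared condition at 42.8% and 46.4% of the RGFP966 + KLA-only promoters, at 52.0% and 71.9% of the KLA-only and at 71.8% and 84.8% of the Veh-only promoters.

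**Figure D4:**
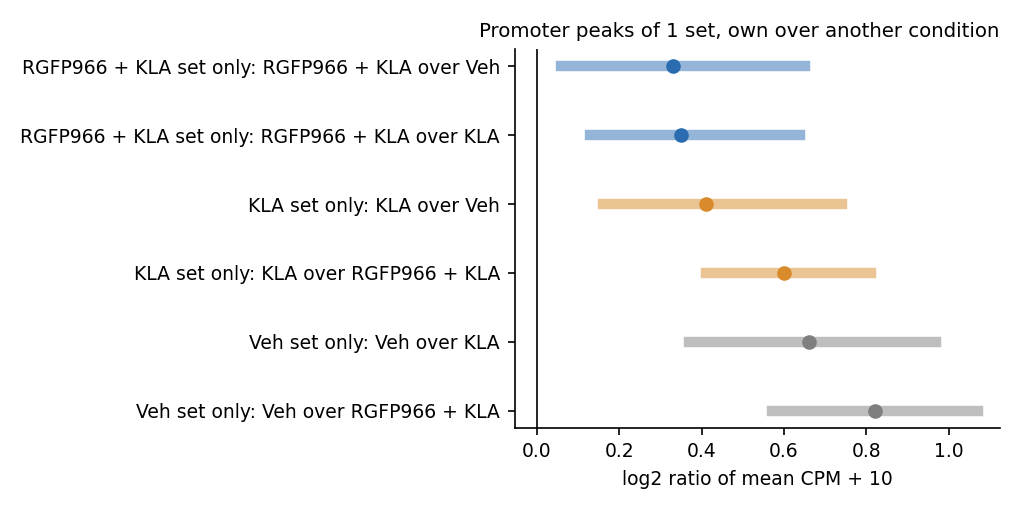
Log2 ratio of mean CPM (after adding 10) of the condition whose set held the peak over each other condition, for promoter peaks found in 1 set only. Dots are medians and bars span the quartiles over peaks, and the RGFP966 + KLA-only promoters have the lowest medians, 0.33 and 0.35.

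The NCoR f/f libraries, which the rule did not use, give a view of the same promoters in other cells at Veh. Of the 1050 promoters, 855 (81.4%, Wilson 95% interval 79.0 to 83.7) overlapped an NCoR f/f Veh peak. That was fewer than for promoters in all 3 WT sets (97.2%, 96.3 to 97.8), near the share for KLA-only promoters (79.7%, 74.9 to 83.9) and for Veh-only promoters (85.6%, 81.7 to 88.8), and more than for RGFP966 + KLA-only distal peaks (44.1%, 41.9 to 46.4). The NCoR f/f libraries were deeper, with 372367 and 509741 tags in peaks. The table of NCoR f/f peaks also holds a set named for KLA, of which 934 of the promoters (89.0%) overlapped a peak, although its libraries were not analysed here. Any peak of that table overlapped 1016 (96.8%), and 34 had none. Thus most promoters that were in the WT table only with RGFP966 + KLA had a called peak in NCoR f/f cells at Veh.

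Their level in NCoR f/f cells was low too. The overlapping peaks had a median of 16 and 23 tags in the 2 NCoR f/f Veh libraries, against 30 and 44 for promoters in all 3 WT sets, and 45.3 mean CPM against 83.1. KLA-only and Veh-only promoters were near them, with 47.6 and 51.3 mean CPM. Across the 1016 promoters with a peak there, Spearman's rho of the NCoR f/f Veh level was 0.445 with the WT Veh level, 0.269 with KLA and 0.238 with RGFP966 + KLA. The points share promoters of 1 selection, so these are descriptions.

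The promoters with the most NCoR f/f Veh tags were Klf10, Zfp317, 6430706D22Rik and Hnrnpc. Klf10, a TGF-beta-inducible Kruppel-like factor, had 51 and 91 tags in NCoR f/f cells, and 16 and 10 at Veh, 16 and 8 with KLA and 15 and 20 with RGFP966 + KLA in WT cells. 6430706D22Rik had 59 and 74 in NCoR f/f cells, and 3 and 4, 3 and 10, and 12 and 9 in the WT conditions. These raw tags include the greater depth of the NCoR f/f libraries. In mean CPM, Klf10 had 157.7 in NCoR f/f cells, and 103.3, 77.04 and 88.52 in the WT conditions. 6430706D22Rik had 151.8, against 28.15, 50.85 and 52.8. The CPM of NCoR f/f and WT cells were scaled over different peaks, so they are only roughly comparable. The Klf10 and 6430706D22Rik peaks lay in introns downstream of the TSS.

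The 34 promoters without an NCoR f/f peak were of another make-up. They had a median of 31.8 CPM at Veh, 45.5 with KLA and 68.2 with RGFP966 + KLA, a median GC content of 51.5% and a median CpG ratio of 0.473, and 9 of them held an AP-1 string. The highest was Prpf39, a pre-mRNA splicing factor gene, with 6 and 4 tags at Veh, 11 and 5 with KLA and 27 and 17 with RGFP966 + KLA at a peak 1434 bp downstream of the TSS. Zfp945 had 2 and 3, then 4 and 8, then 24 and 17. The noncoding gene E130018N17Rik had 6 and 1, then 7 and 7, then 23 and 15. Kctd3 differed from these, with 11 and 11, 13 and 11, and 20 and 20 tags, a GC content of 75% and a peak 73 bp from the TSS. Its means were 88.07 CPM at Veh, 81.87 with KLA and 100.9 with RGFP966 + KLA. The 142 promoters found in the NCoR f/f set named for KLA but not in its Veh set held an intermediate place, with 47.7 CPM at Veh, 53.2 with KLA and 70.8 with RGFP966 + KLA.

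In position, more of the RGFP966 + KLA-only promoters than of all promoter peaks lay very close to the TSS, and more also lay far from it. The median distance was -39 bp (a minus sign means upstream), with quartiles at -95 and 16 bp, and 650 (61.9%, 58.9 to 64.8) lay within 100 bp of the TSS against 57.2% of all promoter peaks. Within 500 bp lay 893 (85.0%, 82.8 to 87.1), against 89.8%. The authors' annotation placed 870 (82.9%, 80.5 to 85.0) at a promoter-TSS, against 88.3% of all promoter peaks, 101 in introns (9.62%, against 6.27%), 28 between genes and 26 in a 5' UTR. They were assigned to 1022 genes on chromosomes 1 to 19 and X, 985 peaks to protein-coding genes and 64 to noncoding RNAs. The median width was 231 bp, against 313 bp for promoters in all 3 sets, 236 bp for KLA-only and 244 bp for Veh-only promoters. A TSS of the opposite strand close by was found for 12.4% (10.5 to 14.5), against 20.7% (18.9 to 22.5) of promoters in all 3 sets. It was found for 11.4% of KLA-only and 14.1% of Veh-only promoters, so neither trait was particular to the RGFP966 + KLA-only promoters.

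At the limit of 2000 bp, the members just inside were Mir3072 (1993 bp downstream), Slc30a3 (1958 bp upstream) and Lgals3 (1952 bp upstream). Their means were 78.3, 70.4 and 87.9 CPM with RGFP966 + KLA. Just outside were Ugt1a1 (2004 bp), Sept9 (2019 bp) and Fli1 (2031 bp), with 78.1, 88.1 and 75.9. These levels are in the condition whose set held all of these peaks, so the rule bears on their likeness. At Veh the means were 20.4, 40.3 and 83.7 CPM inside the limit, and 68.4, 103.6 and 43.4 outside it. Whether levels differ across the limit was not tested.

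Sequence split the promoters into a large CpG-rich and a small CpG-poor group. The median GC content of the central 200 bp was 65.5%, equal to that of promoters in all 3 sets, and far above the 48.5% of RGFP966 + KLA-only distal peaks. The ratio of observed to expected CpG was at least 0.6, the usual limit for a CpG island, at 797 promoters (75.9%), against 81.9% of all promoter peaks. These 797 had medians of 60.4 CPM at Veh, 58.8 with KLA and 75.2 with RGFP966 + KLA. The other 253 had 48.3, 53.5 and 73.8. Of the 64 promoters called against Veh, 39 were among the 253 CpG-poor ones, as were all 8 called higher with KLA than at Veh. The 4 called against KLA were all CpG-rich. The rule used the tags behind these calls, and the cut at 0.6 was made after the data were seen. The share called among all CpG-poor peaks is not given here. Whether these counts are particular to the RGFP966 + KLA-only promoters was not tested.

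The 157 promoters over 500 bp from the TSS resembled the CpG-poor group. Their median log2 difference from Veh was 0.59 with RGFP966 + KLA and 0.17 with KLA, while the 650 within 100 bp had 0.33 and -0.04. The medians between RGFP966 + KLA and KLA were 0.41 and 0.39. The rule used these tags, the division by distance was made after the data were seen, and the differences between the groups were not tested.

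Motif strings were counted on both strands of the central 200 bp. The Sp/KLF GC box GGGCGG was in 61.6% of the RGFP966 + KLA-only promoters (58.6 to 64.5), 68.1% of all promoter peaks and 74.1% of those in all 3 sets. NFY (GCCAATNNG), the CCAAT-box factor, was in 9.43% (7.81 to 11.3), 13.9% and 17.6%. AP-1 (TGANTCA), the Fos and Jun dimer, was in 6.76% (5.40 to 8.44), 4.67% and 2.88%. ETS (CCGGAAGT) was in 6.76%, 6.89% and 7.06%, and the PU.1 form GAGGAAGT in 3.62%, 3.22% and 2.93%. C/EBP (TTGCNNAA) was in 6.86%, 5.83% and 4.76%, IRF (AAANNGAAA) in 3.33%, 2.91% and 2.09%, and the NF-kB consensus in 4.48%, 3.75% and 3.24%.

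GC boxes, NFY strings and ZNF143 strings (CTACAANTC, in 2.29%, 1.54 to 3.38, against 3.32% and 4.5%) were fewer, and AP-1 strings more frequent, than at promoters in all 3 sets, with intervals that did not overlap. NRF1 (CGCATGCG) was in 4.0%, 3.51% and 3.45%, YY1 (ATGGCGGC) in 3.05%, 2.96% and 2.20%, CRE (TGACGTCA) in 3.14%, 2.91% and 3.24%, the E-box CACGTG in 8.38%, 8.03% and 7.22%, and the TATA-box string TATAAA in 2.00%, 2.04% and 1.10%. The AP-1 share was 4.15% within 100 bp of the TSS and 20.4% over 500 bp from it. In RGFP966 + KLA-only distal peaks it was 37.5%. The 47 promoters with an NF-kB string had a median log2 difference from Veh of 0.25 with KLA and 0.64 with RGFP966 + KLA. Slco5a1 and 4932412D23Rik, which are among them, had -0.83 and -0.76 with KLA.

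**Figure D5:**
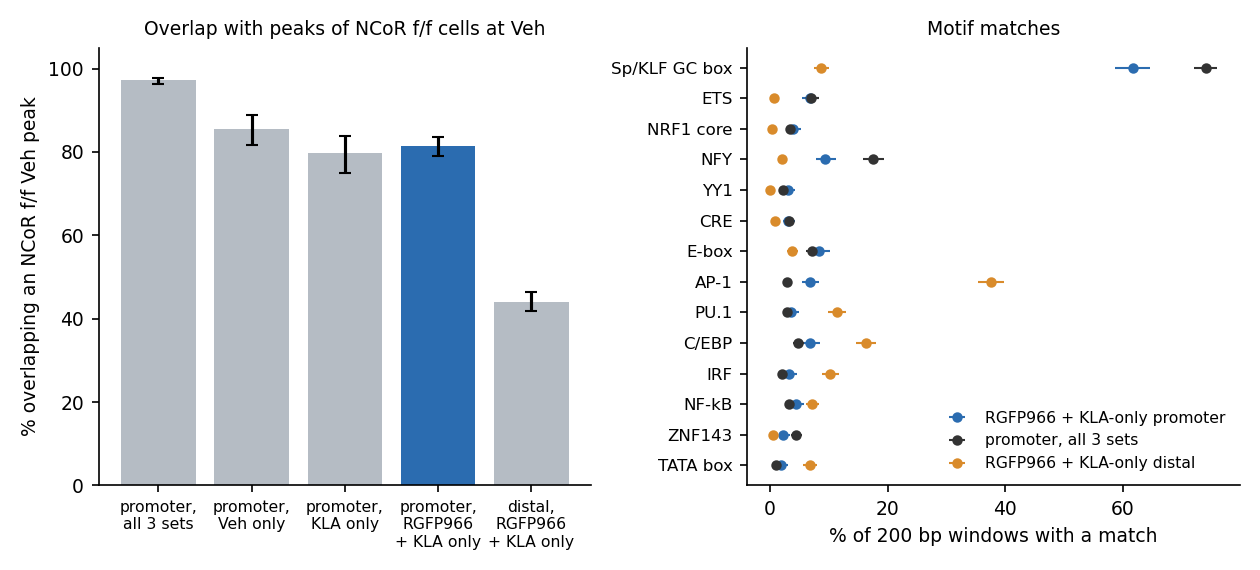
Left, percent of peaks that overlap an NCoR f/f Veh peak, with Wilson 95% intervals, for promoter and distal peaks by the WT sets they were in. Right, percent of central 200 bp windows with each motif string, where the RGFP966 + KLA-only promoters (blue) lie close to promoters in all 3 sets (black) and far from RGFP966 + KLA-only distal peaks (orange) for the GC box and AP-1.

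Gene lists are described by the share of their promoter peaks that were RGFP966 + KLA-only, beside the 21.4% over all promoter peaks, with no test. Most lists are families matched by the start of the gene symbol. Zinc finger proteins, the largest list, had 42 of 154 (27.3%). Their 3 highest were Zfp317, Zfp128 and Zfp964. Zfp128 had 8 and 15 tags at Veh, 12 and 11 with KLA and 25 and 23 with RGFP966 + KLA. The means at Zfp128 were 92.95, 79.2 and 120.9 CPM. By edgeR, 5 of the 42 were called higher with RGFP966 + KLA than at Veh, where 6.1% of the 1050 promoters and 6.89% of all peaks were, 2 were called for KLA against Veh and none for RGFP966 + KLA against KLA.

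The lists of gene expression and chromatin ranged from 14.3% to 26.1%, on both sides of the overall share. General transcription and Mediator genes had 12 of 46 (26.1%), led by Taf1, the largest TFIID subunit, Polr2d and Med12. Chromatin modifiers had 10 of 48 (20.8%). Smarca2, the BRM ATPase of SWI/SNF, had 6 and 5 tags at Veh, 10 and 7 with KLA and 23 and 20 with RGFP966 + KLA and was called against Veh, and Smarca5, the ISWI ATPase, had 9 and 7, then 12 and 12, then 21 and 22. Splicing and RNA processing had 16 of 86 (18.6%). Translation factors and tRNA synthetases had 7 of 49 (14.3%), with Eif4h at 7 and 11, 22 and 8, and 21 and 24 tags. DNA replication and repair had 13 of 77 (16.9%), with Rad1, a subunit of the checkpoint clamp, at 6 and 9, 10 and 7, and 23 and 16. Those 13 also include Ccndbp1, Cdc37l1 and Cdc42se2, so that list is wider than its name.

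The lists of cell upkeep ranged from below to above the overall share. Mitochondrial respiration and mitoribosome genes had 14 of 67 (20.9%), proteasome and ubiquitin enzymes 12 of 63 (19%), ribosomal proteins 5 of 30 (16.7%), of which 2 are ribosomal S6 kinases, and vesicle traffic 12 of 87 (13.8%). Lysosome and phagocytosis genes had 7 of 20 (35.0%). Among these, Ctsz encodes a lysosomal cysteine protease. Its peak 601 bp upstream of the TSS had 7 and 5 tags at Veh, then 6 and 8, then 19 and 17. Another Ctsz member, 59 bp downstream of the TSS, had 5 and 7, then 10 and 11, then 14 and 13. There the KLA mean of 73.9 CPM was above the 68.0 with RGFP966 + KLA. Cd63, a lysosomal tetraspanin, was level at 11 and 10, 9 and 12, and 14 and 15. Replication-dependent histones had 0 of 7.

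The table held few promoter peaks of macrophage response genes. Of inflammatory cytokines and chemokines 2 of 5 promoter peaks (40.0%) were RGFP966 + KLA-only, Cxcl2 and Il18. Cxcl2, a neutrophil chemoattractant, had 5 and 4 tags at Veh, 22 and 5 with KLA, and 17 and 25 with RGFP966 + KLA, and it was among the 64 called against Veh. Its KLA libraries differed, and KLA replicate 1 reached the inhibitor libraries while KLA replicate 2 stayed near Veh. Il18 had 5 and 6, then 21 and 4, then 17 and 16, the same split.

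In TLR4 and NF-kB signalling 2 of 16 (12.5%) were members. Tbk1, the kinase that activates IRF3, had 1 and 1 tags at Veh, 8 and 6 with KLA and 10 and 11 with RGFP966 + KLA at an intronic peak 643 bp downstream of the TSS, a ratio of RGFP966 + KLA to Veh of 6.62 with an exact interval of 1.62 to 58.2. Tirap, the adaptor that links TLR4 to MyD88, had 4 and 6, then 5 and 5, then 10 and 15. Irf5, a transcription factor of the interferon response, had 7 and 6 tags at Veh, 9 and 9 with KLA and 13 and 11 with RGFP966 + KLA, with a log2 difference between RGFP966 + KLA and KLA of 0.03.

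Of 13 promoter peaks of genes of the NCoR/HDAC3 and other corepressor complexes, 3 were members (23.1%), of which only Tbl1xr1 is a subunit of the NCoR/HDAC3 complex. Tbl1xr1 had 13 and 12 tags at Veh, 11 and 6 with KLA and 13 and 14 with RGFP966 + KLA. Ctbp2, a corepressor, had 11 and 12, then 8 and 7, then 15 and 19, and Rbpj, the DNA-binding effector of Notch, had 9 and 17, then 30 and 10, then 23 and 20. The log2 difference between RGFP966 + KLA and Veh was -0.55 at Tbl1xr1 and -0.10 at Ctbp2, and that between RGFP966 + KLA and KLA was -0.28 at Rbpj. Of 19 promoter peaks of LXR and SREBP lipid genes, Abca1, Cyp51 and Idi1 were members (15.8%). Abca1, the cholesterol exporter, had 1 and 3 tags at Veh, 13 and 7 with KLA and 13 and 10 with RGFP966 + KLA in its first intron, so that KLA and RGFP966 + KLA were alike. Idi1 and Cyp51, enzymes of cholesterol synthesis, had 1 and 5 and 4 and 3 tags at Veh, 6 and 5 and 7 and 7 with KLA, and 15 and 14 and 11 and 15 with RGFP966 + KLA. EdgeR called none of these 6 in any comparison. Among 19 promoter peaks of macrophage transcription factors, Egr1, Klf4 and Atf4 were members (15.8%), and at Klf4 the means were 112, 81.9 and 82.9 CPM at Veh, with KLA and with RGFP966 + KLA.

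Some genes had more than 1 such peak or another promoter peak nearby. There were 28 genes with 2 RGFP966 + KLA-only promoter peaks. At Slc2a1, the glucose transporter GLUT1, the peak 66 bp upstream had 15 and 9, 16 and 7, and 16 and 25 tags, and that 477 bp downstream had 10 and 7, 10 and 8, and 20 and 16. The 2 peaks of Wwc2, 1 and 557 bp upstream, had 25 and 24 and 19 and 10 tags with RGFP966 + KLA. For 165 promoters (15.7%, 13.6 to 18) the gene had another promoter peak in the table, against 10.4% (9.09 to 11.8) of promoters in all 3 sets. The share was also 15.7% (12.4 to 19.7) for Veh-only promoters, and it was higher for KLA-only promoters (interval 14.1 to 22.7). This trait was thus not particular to the RGFP966 + KLA-only promoters. For 86 of the 165, that gene had a promoter peak in the Veh set.

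As a check of the cell type, 4 of 11 macrophage marker symbols had a peak in the WT table (Csf1r, Fcgr1, Itgam and Cd68), and none of these peaks was a member. Of the 11 symbols, Adgre1 and Emr1 name the same gene. T cell, B cell and mast cell markers had no peak. Of neutrophil markers only Camp had one, with 4 and 5 tags at Veh, 22 and 12 with KLA and 32 and 33 with RGFP966 + KLA. Its part in the results was not tested. The fibroblast marker Pdgfrb and the endothelial marker Kdr had peaks far from the TSS.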

How the data were processed

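Per the labels and the methods of the study, the authors aligned reads with Bowtie2 (mm10) and used HOMER to find peaks, kept those reproducible between 2 libraries of a condition by the irreproducible discovery rate (IDR), merged the sets of the conditions and deposited raw tag counts for each merged peak and library, with at most 3 tags at a base position. Versions are not given in the sources used here. Distances to the TSS, genes, annotations and sets were taken from the deposited tables, and every per-sample column was used. CPM were computed from them over the tags in peaks.

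edgeR 4.0.16 in R 4.3.3 (quasi-likelihood test, Benjamini-Hochberg adjustment) was fitted to the 6 WT libraries over all 9698 peaks with at least 4 tags in 1 library, with total tags in peaks as library size. The fit was tested on simulated data. DESeq2 1.42.0, which the methods name for differential peaks at the same minimum of tags, was an alternative. GC content and motif strings were read from the central 200 bp on GRCm38, on which 93.6% of 9470 peaks had a recomputed TSS distance within 1 bp of the deposited one. Overlap meant 1 shared base, by bedtools 2.31.1. Shares have Wilson 95% intervals, which cover counting error only.

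Promoters were named by rule: the 12 with the highest mean with RGFP966 + KLA, those called against KLA, the 4 smallest p per direction for KLA against Veh, up to 3 per gene list, those at the limit of 2000 bp, those with most or no NCoR f/f signal, and genes with 2 members. The members and lists were chosen with earlier results of these data known, and the divisions by CpG ratio (0.6) and by distance (100 and 500 bp) after the data were seen. ChIP-seq and RNA-seq of the study were not analysed here. Some items of the gene and marker lists are not reported here.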

Additional observations from a re-analysis of the deposited data

How the results depend on the processing

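The number called against KLA (4) was 13 with library sizes from all tags, 0 with DESeq2, 7 with the replicate block, and 0 to 10 with a library left out. The number called against Veh (64) was 0 with DESeq2, 42 with at least 16 tags in 1 library, 71 with the replicate block, and 14 to 69 with a library left out. For KLA against Veh (12) it was 0 with DESeq2, 7 with at least 16 tags, 12 with the replicate block, and 2 to 9 with a library left out.

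The share of all peaks called under these alternative settings is not given here, so the counts of calls stand without a background. Whether same replicate numbers pair the libraries is not stated. Deviations of replicate 1 from the mean of its condition correlated between conditions at 0.0667, 0.0374 and 0.0286. These values are over 4359 peaks with at least 8 tags in each library. At so few tags, counting error lowers such values, so they cannot show whether the libraries were paired. With only 2 numbers the block is given as a value. The median log2 change was 0.56 against KLA and 0.49 against Veh with library sizes from all tags, which moved the medians of all peaks to 0.21 and 0.14, so that the promoters stayed 0.36 and 0.35 above them. Against Veh it was 0.33 with TMM and 0.33 with DESeq2, and 0.43 with at least 16 tags. With a library left out it ranged from 0.37 to 0.49 against KLA, from 0.36 to 0.44 against Veh, and from -0.09 to 0.05 for KLA against Veh, so the last has no fixed sign.

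The overlap with the NCoR f/f Veh set was 71.1% where 50% of both peaks had to be shared, 96.8% with all peaks of that table and 89.0% with its KLA set, the last chosen after seeing the data. Of the alternatives for the single motif shares, the 100 bp window gave lower shares throughout. The promoters had a median of 6 to 15 tags per library, and for a single promoter with 15 tags the counting error alone spans 8.4 to 24.7.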
